A study of Mus musculus with 2 samples.

Results

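The miR-99/100 and miR-125 genes of the mouse are 6 microRNA (miRNA) genes: Mir99a, Mir99b, Mir100, Mir125a, Mir125b-1 and Mir125b-2. They were chosen by name from 3 loci that each also hold a let-7 gene, with let-7 left aside, and all 6 of 6 were found among the 2202 miRNA genes counted. The tissue was heart from old adult males (18 to 20 months) of B6CASTF1/J, the first-generation cross of the strains C57BL/6J and CAST/EiJ, supplied by The Jackson Laboratory. The libraries, biological replicates 1 and 2, form 1 group with no treatment listed, so the data describe levels in old heart and compare no conditions. Their labels name separate biosamples but 1 donor record, which does not settle whether the animals were separate. The spread between the libraries may be biological or technical.

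MiRNAs are cut from hairpin precursors as short strands, the 5p and the 3p arm, and a mature strand represses messenger RNAs that pair with its seed, bases 2 to 8. The miR-125 genes are the vertebrate relatives of lin-4, the worm miRNA that, like let-7, times development. Lin28 messages are among their known targets. The miR-99/100 genes are known as repressors of Mtor, a kinase of growth control, and the family has been studied in heart muscle regeneration together with let-7.

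The mature 5p sequences are shown because the counts turn on how alike they are. All of the 6 genes matched RefSeq entries (GRCm38.p6), and the seed is in capitals.
miR-99a-5p: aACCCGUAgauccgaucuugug
miR-100-5p: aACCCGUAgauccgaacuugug
miR-99b-5p: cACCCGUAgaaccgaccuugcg
miR-125a-5p: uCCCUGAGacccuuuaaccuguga
miR-125b-5p, from both Mir125b-1 and Mir125b-2: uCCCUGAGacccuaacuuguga
The genes thus fall into 2 groups by 5p seed. With positions counted from 1 at the 5′ end, miR-100-5p differs from miR-99a-5p by U16A alone, while miR-99b-5p differs from miR-99a-5p at 4 positions (A1C, U11A, U16C and U21C). GC content is 63.6% in miR-99b-5p and 50.0% in each of the others. The 3p arms of Mir99a and Mir99b also share a seed, AAGCUCG, and that of Mir100 has another, CAAGCUU.

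The copies of miR-125b carry the same 5p strand. A read inside that strand matches both genes equally, and the tables list reads mapped to several places on a separate line, outside every gene. Each hairpin was compared with 2200 other named hairpins of the tables. The longest exact stretch was 16 bases for Mir99a and Mir100 (shared with each other) and 11 for Mir99b (shared with Mir100). For Mir125a it was 14 (shared with both miR-125b copies). For the miR-125b copies it was 24 (shared with each other), longer than their 5p strand of 22 bases. The counted levels of Mir125b-1 and Mir125b-2 are therefore levels of the reads that could be placed, and how many miR-125b-5p reads were set aside cannot be read from the tables. Exact stretches do not cover reads placed with a mismatch, and the mismatch settings were not given. The 5p strands of Mir99a and Mir100 differ at 1 position. Whether reads were exchanged between these genes or set aside was not tested.

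The 3 loci have 1 layout. In each, a miR-99/100 gene comes first, then a let-7 gene, then a miR-125 gene, all on the plus strand (coordinates are of GRCm38, the build mm10). On chromosome 16, Mir99a (77598936 to 77599000), Mirlet7c-1 and Mir125b-2 span 47.4 kilobases and lie in introns of the noncoding gene Mir99ahg. On chromosome 9, Mir100 (41531425 to 41531504), Mirlet7a-2 and Mir125b-1 (41581926 to 41582002) span 50.6 kilobases and lie in introns of 3110039I08Rik, which RefSeq names Mir100hg. On chromosome 17, Mir99b (17830188 to 17830257), Mirlet7e and Mir125a (17830812 to 17830879) span 692 bases within the coding gene Spaca6, Mir99b in an intron and Mir125a overlapping an annotated exon. Exons of other annotated genes overlap the hairpins of Mir125b-2 (C130023A14Rik) and Mir125b-1 (Gm28119) and, on the opposite strand, those of Mir100 (Gm48742) and the let-7 neighbour Mirlet7e (the miRNA gene Gm25927). No read was counted on the opposite strand of any of the 6 genes in either library, where a count of 0 allows up to 0.988 reads per 1000000 in replicate 1 and 0.568 in replicate 2.

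**Figure D1:**
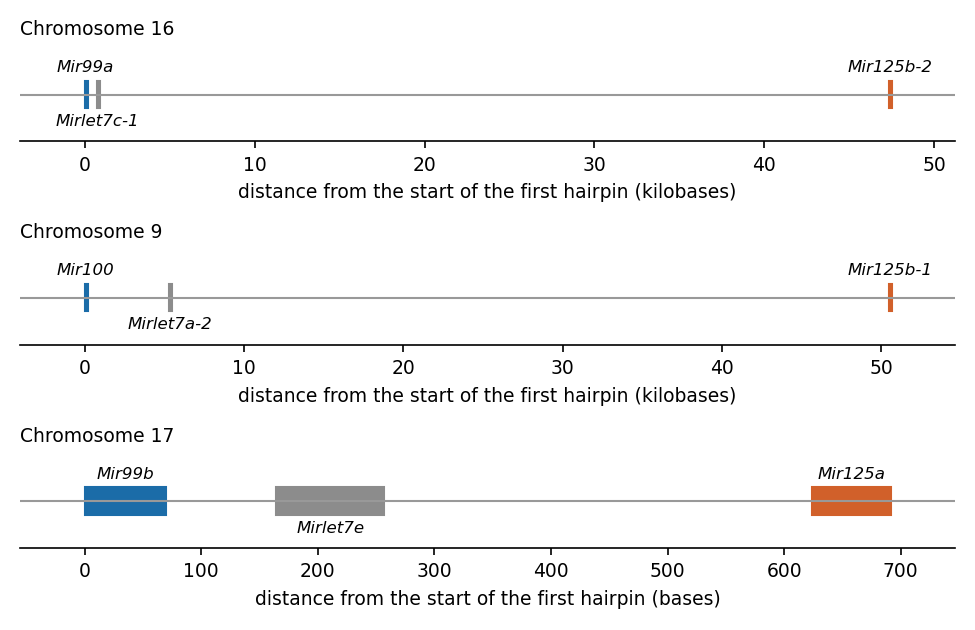
Maps of the 3 loci, with distance from the start of the first hairpin on the x axis (kilobases for chromosomes 16 and 9, bases for chromosome 17). Blue boxes are miR-99/100 hairpins, grey boxes let-7 and orange boxes miR-125, drawn to scale on chromosome 17 and wider than scale on the others. The order is the same in each, while the spans are 47.4 kilobases, 50.6 kilobases and 692 bases.

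Replicate 1 held 3037063 reads in miRNA genes and replicate 2 held 5284446. Levels are reads per 1000000 of these (CPM). A read covers a whole mature strand, so CPM was not divided by length. Reads mapped to several places were 40.7% and 32.5% of all reads. The heart muscle miRNAs Mir208a, Mir208b and Mir499 were present in both libraries (summed 10793 and 14758 CPM), while of 6 brain genes (Mir124a and Mir9) 4 had no read and the sum stayed under 1 CPM (0.329 and 0.568 CPM), and the liver gene Mir122 had 30.0 and 12.7 CPM.

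Together the 6 genes took 5.90% ± 0.969 (SD, n = 2) of the counted miRNA reads of the heart. Replicate 1 stood at 6.58%, with 95% Wilson bounds of 6.56 and 6.61, and replicate 2 lower at 5.21%, with bounds of 5.19 and 5.23. Most of it was the miR-99/100 family, with 5.79% and 4.29% of the reads, against 0.789% and 0.924% for the miR-125 genes. The miR-125 share lacks the 5p reads that match both miR-125b copies, so this balance of the families holds for counted reads only. Intervals cover the counting error of reads within a library only. No molecular identifiers are recorded, so copied reads of a molecule cannot be told from separate molecules.

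Mir99a was the most abundant of the 6, with 127722 reads in replicate 1 and 167411 in replicate 2. Its levels were 42054 and 31680 CPM, a mean of 36867 ± 7336 CPM (SD, n = 2). It ranked 10 and 12 among all miRNA genes in the 2 libraries. Its lower library still stood above both libraries of each of the other 5 genes.

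Mir99b had 30876 reads in replicate 1 and 18360 in replicate 2. In CPM these were 10166 and 3474, with a mean of 6820 ± 4732 (SD, n = 2). This was the widest spread between libraries among the 6 genes, 2.93-fold, and moved the gene from rank 19 to rank 38.

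Mir100 had 17350 and 40863 reads in replicates 1 and 2. Its levels of 5713 and 7733 CPM gave a mean of 6723 ± 1428 (SD, n = 2). Mir100 thus stood below Mir99b in replicate 1 and above it in replicate 2, and their mean levels differed by less than the spread between the libraries.

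Of the lin-4 relatives, Mir125a had 22572 and 45480 reads. Its levels were 7432 and 8606 CPM, with a mean of 8019 ± 830 (SD, n = 2), and it ranked 20 and 21. Mir125a stood above Mir100 in both libraries, although their ranges overlapped, while Mir99b stood above both in replicate 1 and below both in replicate 2.

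Far lower stood the miR-125b copies, whose 5p reads match both. Mir125b-1 had 971 and 1931 reads, or 320 and 365 CPM (mean 343 ± 32.3, SD, n = 2). Mir125b-2 had 434 and 1421 reads, or 143 and 269 CPM (mean 206 ± 89.1, SD, n = 2). The ranges of these copies did not overlap each other. The half-width of the 95% Wilson interval of a single level ran from 0.471% of the level for Mir99a in replicate 2 to 9.42% for Mir125b-2 in replicate 1.

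**Figure D2:**
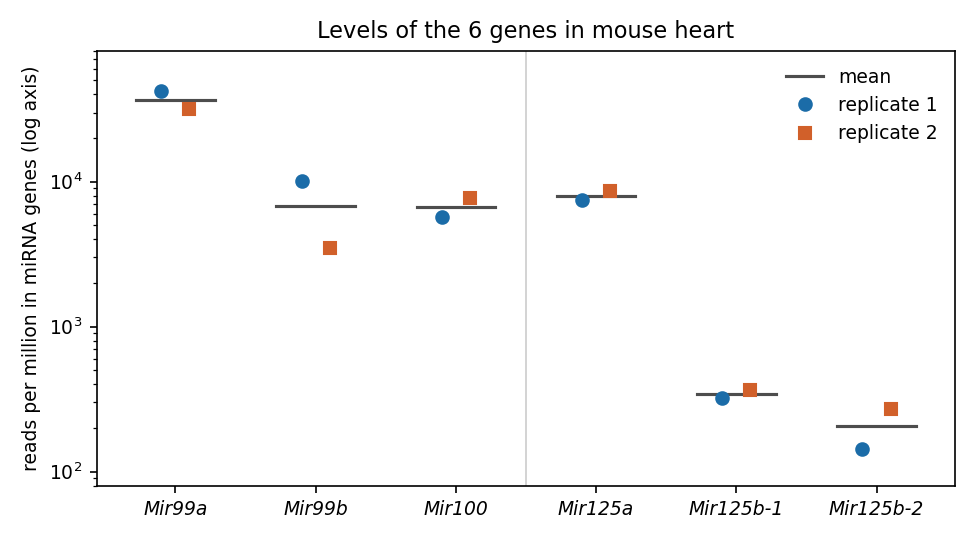
Levels of the 6 genes in reads per 1000000 in miRNA genes (log axis). Circles are replicate 1, squares replicate 2 and bars their mean. Mir99a stands highest at 31680 to 42054, Mir125a, Mir99b and Mir100 overlap between 3474 and 10166, and the miR-125b copies lie between 143 and 365.

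Within each family 1 gene gave most of the counted reads. Mir99a gave 72.6% of the counted miR-99/100 reads in replicate 1, with Wilson bounds of 72.4 and 72.8, and 73.9% in replicate 2, with bounds of 73.7 and 74.0. Behind it the order changed: Mir99b gave 17.5% and then 8.10%, and Mir100 gave 9.86% and then 18.0%. Mir99a exceeded Mir100 by 7.36-fold in replicate 1 and 4.10-fold in replicate 2, and exceeded Mir99b by 4.14-fold and 9.12-fold. The part of reads that could match both Mir99a and Mir100 with a mismatch was not tested.

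Mir125a gave 94.1% (93.8 to 94.4) and 93.1% (92.9 to 93.4) of the counted miR-125 reads. Reads that match both miR-125b copies are in none of these shares, so whether Mir125a leads among all miR-125 reads cannot be told. Among counted reads the order was clear. Mir125a exceeded Mir125b-1 by 23.2-fold in replicate 1 and 23.6-fold in replicate 2, a mean log2 ratio of 4.55 ± 0.01 (SD, n = 2). This ratio was the steadiest between the libraries of those between family members, but its denominator lacks the reads that match both copies.

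**Figure D3:**
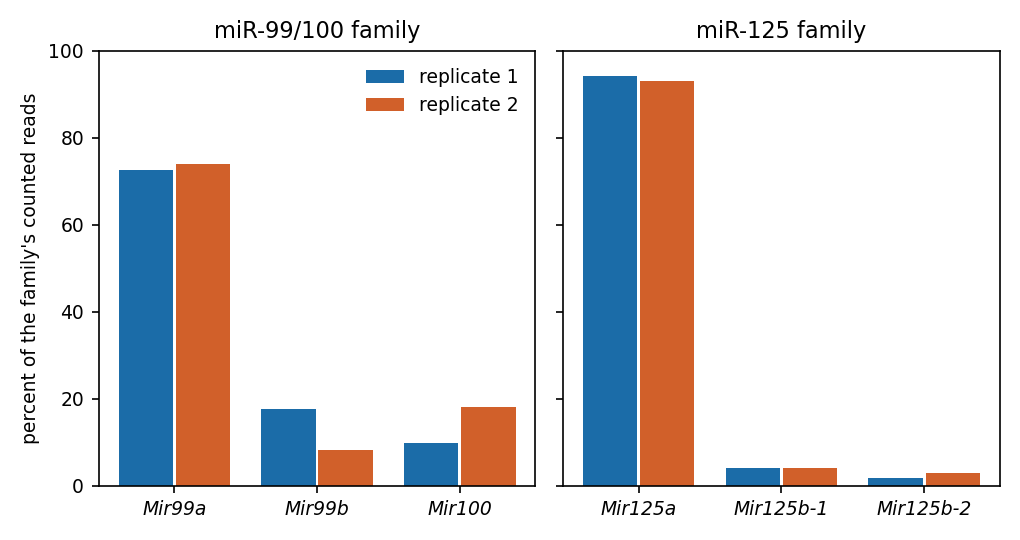
Share of each family's counted reads given by each gene, in percent, with 1 bar per library. Mir99a (72.6% and 73.9%) and Mir125a (94.1% and 93.1%) lead in both libraries, while Mir99b and Mir100 exchange places. Reads that match both miR-125b copies are in no share.

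The loci were compared by the sum of their miR-99/100 and miR-125 genes. The chromosome 16 locus had 42197 CPM in replicate 1 and 31949 in replicate 2, the chromosome 17 locus 17599 and 12081, and the chromosome 9 locus 6032 and 8098. The order was the same in both libraries. In 3 pairs of loci, chromosome 16 exceeded chromosome 17 by a mean log2 ratio of 1.33 ± 0.10 and chromosome 9 by 2.39 ± 0.58 (SD, n = 2 for each). Chromosome 17 exceeded chromosome 9 by 1.06 ± 0.68, which was 2.92-fold in replicate 1 (exact 95% interval 2.87 to 2.97) and 1.49-fold in replicate 2 (1.47 to 1.51). A sign-flip test over 2 libraries cannot go below an exact p of 0.5, so none was made for any ratio. The sums of chromosomes 16 and 9 lack the reads shared by the miR-125b copies, and that of chromosome 17 does not.

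The balance of the miR-99/100 and the miR-125 gene was unlike in the 3 loci. On chromosome 16, Mir99a exceeded Mir125b-2 by 294-fold in replicate 1 (exact 95% interval 268 to 324) and 118-fold in replicate 2 (112 to 124). On the log2 scale this averaged 7.54 ± 0.93 (SD, n = 2). On chromosome 9, Mir100 exceeded Mir125b-1 by 17.9-fold (16.7 to 19.1) and 21.2-fold (20.2 to 22.2), a mean log2 ratio of 4.28 ± 0.17 (SD, n = 2). Every library of the first pair stood above every library of the second.

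On chromosome 17, where both mature 5p strands are distinct, the balance turned. Mir99b exceeded Mir125a by 1.37-fold in replicate 1 (exact 95% interval 1.34 to 1.39), while in replicate 2 Mir125a exceeded Mir99b by 2.48-fold (2.43 to 2.52). The mean log2 ratio of -0.43 ± 1.24 (SD, n = 2) does not set a direction. The ratios of the 3 loci nevertheless did not overlap: the highest library of the chromosome 17 pair had a log2 ratio of 0.45, against 4.16 for the lowest library of the others. The pairs on chromosomes 16 and 9 have a miR-125b copy as denominator, and the part that reads set aside play in these ratios was not tested.

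**Figure D4:**
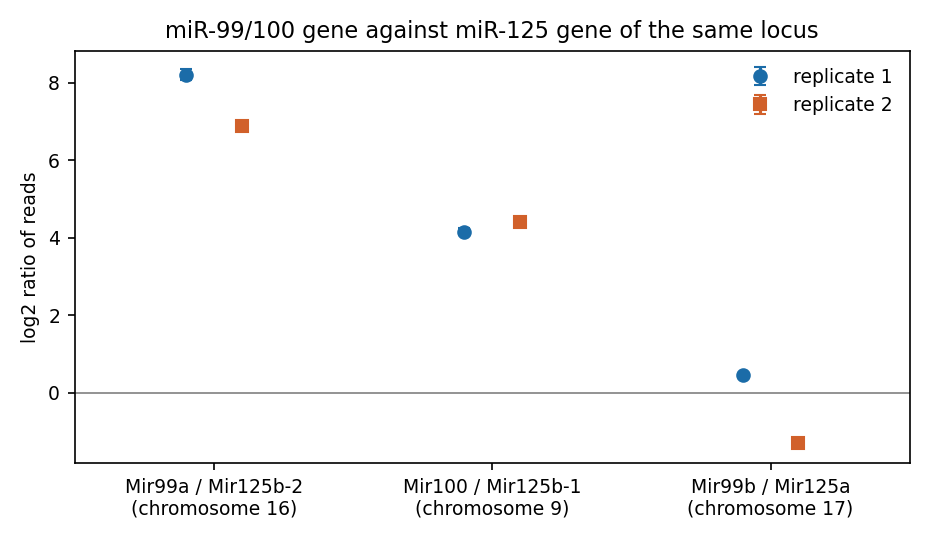
Log2 ratio of the reads of the miR-99/100 gene to those of the miR-125 gene at each locus. Circles are replicate 1, squares replicate 2, bars exact 95% intervals (mostly smaller than the symbols), and the line at 0 is equality. Ratios are 8.20 and 6.88 on chromosome 16, 4.16 and 4.40 on chromosome 9, and 0.45 and -1.31 on chromosome 17.

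Between the 2 copies of miR-125b, Mir125b-1 had more counted reads in both libraries. It exceeded Mir125b-2 by 2.24-fold in replicate 1 (exact 95% interval 2.00 to 2.51) and 1.36-fold in replicate 2 (1.27 to 1.46). The log2 ratio of Mir125b-2 to Mir125b-1 averaged -0.80 ± 0.51 (SD, n = 2). The counting intervals of the libraries do not overlap. Counts are per gene and do not separate arms. Whether these reads are 3p strands or 5p reads that reach past the shared stretch of 24 bases cannot be seen. The order of the copies was the opposite of that of their loci, since chromosome 16 had the higher sum.

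The let-7 neighbours give a further measure at each locus. Mirlet7e, between Mir99b and Mir125a, had 6273 and 6356 CPM. Mirlet7c-1 on chromosome 16 had 508 and 518 CPM, and Mirlet7a-2 on chromosome 9 had 268 and 335 CPM. By name both genes have a further copy (Mirlet7c-2 and Mirlet7a-1), and any reads that match both copies would be in no gene count. The let-7 copies were not compared by sequence, and the part of such reads in these levels and ratios was not tested. The log2 ratio of miR-125 to let-7 was 0.34 ± 0.14 on chromosome 17, 0.19 ± 0.09 on chromosome 9 and -1.39 ± 0.63 on chromosome 16 (SD, n = 2 for each). The log2 ratio of miR-99/100 to let-7 was 6.15 ± 0.31 on chromosome 16, 4.47 ± 0.08 on chromosome 9 and -0.09 ± 1.11 on chromosome 17 (SD, n = 2 for each).

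Mir351, Mir6367 and Mir6394, outside the 6 genes, have a RefSeq mature strand with the miR-125 5p seed. Mir351, a gene on the X chromosome, had 788 and 683 CPM, above both counted miR-125b levels. Mir6367 and Mir6394 had no read in either library, which allows up to 0.988 and 0.568 CPM. No further RefSeq mature strand had the 5p seed of the miR-99/100 family. Mir10a and Mir10b, members of the related miR-10 family from the Hox clusters, had 1423 and 1340 CPM and 437 and 849 CPM.

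The libraries were then compared gene by gene with an exact two-sided binomial test given the library totals. A call here means a gap between 2 libraries larger than read sampling gives, and no condition enters. Across all miRNA genes 52.8% of 424 tested genes were called (Benjamini-Hochberg adjusted p below 0.05): replicate 2 was the higher for 30.9% and replicate 1 for 21.9%. All 6 members were tested and all 6 were called, with replicate 2 the higher for 4 of them (Mir100, Mir125a, Mir125b-1 and Mir125b-2) and replicate 1 for Mir99a and Mir99b. This is the split per 1000000 miRNA reads, and it turns for Mir125a and Mir125b-1 per 1000000 of all reads, where Mir125b-1 is no longer called (adjusted p = 0.423, exact binomial test). At such counts small differences pass. The largest adjusted p was 0.00157, for Mir125b-1. With the common dispersion of the pair in the exact test of edgeR, none of the 6 passed and none had an unadjusted p under 0.05, while 2.83% of the tested genes did pass. That dispersion was estimated from these same 2 libraries taken as replicates, so a gap of the size usual between them is counted as noise. The test therefore cannot show that the members are alike in the libraries.

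Mir99b had the largest difference among the members, a log2 ratio of replicate 2 to replicate 1 of -1.55 (exact 95% interval -1.58 to -1.52). Its adjusted p in the exact test of edgeR, with the dispersion taken from the same pair, was 0.782. Of 92 genes that reached 1000 reads in each library, a limit chosen after the values were seen, 4 had a larger absolute log2 ratio. Only the red blood cell genes Mir144 and Mir451a had a lower ratio. Mir99a was also lower in replicate 2, at -0.41 (-0.42 to -0.40).

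The other 4 members were higher in replicate 2 per 1000000 miRNA reads. Mir125b-2 had a log2 ratio of 0.91 (0.76 to 1.07), Mir100 of 0.44 (0.41 to 0.46), Mir125a of 0.21 (0.19 to 0.23) and Mir125b-1 of 0.19 (0.08 to 0.31). Per 1000000 of all reads every log2 ratio moves by -0.25, which takes the median of all tested genes to -0.18 and turns Mir125a to -0.037 and Mir125b-1 to -0.056, while the other 4 members keep their sign. The median over the 6 members was 0.20, against 0.07 over all tested genes, and the median absolute log2 ratio was 0.42 against 0.50. Among the 92 genes that reached 1000 reads in each library, the median absolute log2 ratio was 0.27. Mir99a, Mir100 and Mir99b lay above it and Mir125a below, while the miR-125b copies did not reach the limit.

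Markers of heart muscle and of other cells moved between the same libraries. The heart muscle genes summed to 10793 CPM in replicate 1 and 14758 in replicate 2, and the test called 2 of 3 higher in replicate 2. The red blood cell genes Mir451a and Mir144 summed to 7165 CPM in replicate 1 and 1219 in replicate 2, and both were higher in replicate 1. The 7 epithelial genes, all with reads in both libraries, summed to 298 and 3874 CPM, and the test called 4 of them higher in replicate 2 and 2 lower there. The endothelial gene Mir126a had 85244 and 109823 CPM and was called higher in replicate 2. The smooth muscle genes Mir143 and Mir145a summed to 45693 and 40641 CPM, and 1 of these 2 was called, higher in replicate 1. In bulk tissue, fewer cells of a type and less of a miRNA per cell cannot be told apart. The part of these cells in the difference of Mir99b or any other member was not tested.

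**Figure D5:**
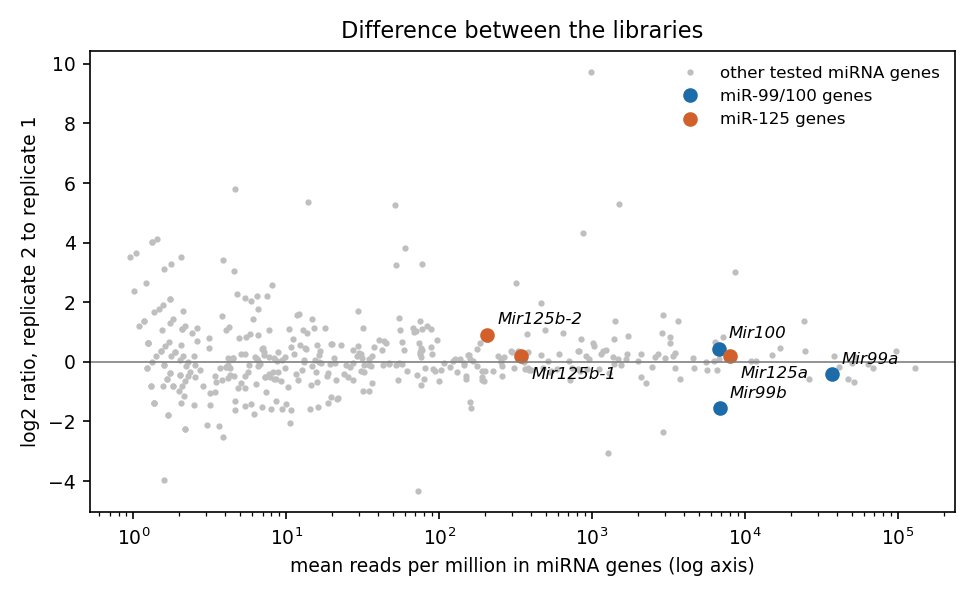
Log2 ratio of replicate 2 to replicate 1 against mean level in reads per 1000000 (log axis) for the 424 tested miRNA genes, with 0.5 reads in place of a count of 0. Blue points are the miR-99/100 genes, orange points the miR-125 genes and grey points all others. Mir99b lies lowest of the members at -1.55 and Mir125b-2 highest at 0.91.

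The genes of a locus differed in how far they shifted between the libraries. On chromosome 17, Mir99b had a log2 ratio of -1.55 between the libraries, Mirlet7e 0.02 and Mir125a 0.21. On chromosome 16, Mir99a had -0.41, Mirlet7c-1 0.03 and Mir125b-2 0.91. On chromosome 9 the 3 genes lay close, with Mir100 at 0.44, Mirlet7a-2 at 0.32 and Mir125b-1 at 0.19. The neighbours Mir99b and Mirlet7e, 94 bases apart, differed by 1.57 in this ratio. Among 53 pairs of detected neighbours on 1 strand within 1000 bases the median difference was 0.67, and 4 pairs differed more. Of the 15 such pairs with at least 1000 reads in both genes and libraries, none differed more. These pairs were compared after the values were seen.

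The genes outside the members with the most similar levels were found by the distance of log2 CPM over the 2 libraries, among 315 detected genes. They were Mir143 for Mir99a (distance 0.29), Mir27b for Mir100 (0.23), Mirlet7f-2 for Mir125a (0.36), Mir874 for Mir125b-1 (0.16) and Mir187 for Mir125b-2 (0.11). Mir99b had no gene as near: its nearest was Mir652, at a distance of 0.91, with 6203 and 5123 CPM. With 2 libraries this likeness describes level and 1 difference only.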

How the data were processed

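Each library has a table of whole-number counts, deposited by the authors, with a column for either strand and 1 for each strand alone. Per the labels the build was mm10, and per the text deposited beside the tables the annotation was GENCODE M21. The aligner, its mismatch and multi-mapping settings, and trimming were not given in the sources used here. Where a CAST/EiJ allele departs from mm10, its reads could be lost, which the counts cannot show.

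Of the strand columns, the one with the larger total in both libraries was taken as sense. The 4 summary lines stayed out of totals: unmapped reads were 19.4% and 34.3% of all reads, reads at several places 40.7% and 32.5%, and reads outside miRNA genes 7.79% and 6.27%, in replicates 1 and 2. All 2202 gene IDs matched GENCODE M21. CPM, means and SDs (n = 2), Wilson and Clopper-Pearson intervals (95%) and binomial tests (at least 10 reads in both libraries together) were computed in Python 3.11.15 with scipy 1.17.1 and statsmodels 0.14.6. Detected means at least 10 reads in each library. edgeR 4.0.16 gave TMM factors, the common dispersion and its exact test, and DESeq2 1.42.0 size factors only. Both tests were also run on simulated counts with known changes and read-sampling error only. The further spread between the real libraries was not simulated. edgeR's quasi-likelihood test needs replicates in 2 groups and was not used.

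Named genes were the 6 members, their let-7 neighbours, listed relatives (Mir351, Mir10a, Mir10b), genes with a member's 5p seed, overlapping genes and the nearest gene by level. Members and lists were chosen with earlier results of these data known. A hairpin sequence is not reported here.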

Additional observations from a re-analysis of the deposited data

Results flagged for a closer look

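Reads that mapped to several places are in no gene count: 3857758 in replicate 1 and 6355706 in replicate 2, far above the 3 reads that a count of 0 allows. Reads of miR-125b-5p match both Mir125b-1 and Mir125b-2, and the tables do not say how many of these reads they are.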

How the results depend on the processing

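No paired analysis was possible because there is 1 group. With TMM or DESeq2 size factors, no member's mean level moved by more than 0.328%, and with them, in the either-strand column or with genes of any read tested, 6 members differed between the libraries, where 53.8%, 53.3%, 52.1% and 30.3% of all tested genes did. With the exact test of edgeR the count was 0, against 2.83% of all, but its dispersion came from the same 2 libraries that it compared. Per 1000000 of all reads, mean levels were 11020.5 for Mir99a, 1960 for Mir100, 2099 for Mir99b, 2354 for Mir125a, 101 for Mir125b-1 and 59.2 for Mir125b-2, and the log2 ratios of Mir125a and Mir125b-1 between libraries turned to -0.037 and -0.056, with 5 members called against 53.3% of all (Mir125b-1 was not). In the either-strand column the totals are smaller, and levels were 49702 for Mir99a, 9063 for Mir100, 9195 for Mir99b, 10811 for Mir125a, 462 for Mir125b-1 and 278 for Mir125b-2. Counts of the 6 genes were the same there, so their ratios did not move. With let-7 added, the log2 ratio of chromosome 16 to chromosome 17 was 0.83 in place of 1.33, and the other 2 locus ratios moved by less than 1 SD. The part that reads shared by let-7 copies play in this move was not tested. Leaving out each library in turn gave log2 ratios of Mir99b to Mir125a from -1.31 (without replicate 1) to 0.45 (without replicate 2), so the direction rests on 1 library. The ratios of Mir99b to Mir100 and to Mirlet7e turned likewise, and those of the 3 loci, of the miR-99/100 to the miR-125 gene on chromosomes 16 and 9 and of the miR-125b copies kept their direction. Levels of the miR-125b copies are limited by reads that match both, and 2 libraries limit every SD.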
